A study of Homo sapiens with 18 samples.

Results

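The 43 genes of ribosome biogenesis and RNA polymerase I transcription described here were examined in 3 established human colorectal cancer cell lines. These genes were chosen by function, with earlier results of the data known. Of these, 40 were among the 13712 genes measured: 8 of RNA polymerase I and its initiation factors, 7 of small nucleolar ribonucleoproteins, 10 of small subunit assembly, 13 of large subunit assembly and 2 nucleolar organisers. The listed probe for NPM1 was detected on 0 of the 18 arrays. GNL3 and WDR43 had no probe in the platform annotation used, so their expression was not analysed here. HCT116, LS174T and SW480 cells received calcitriol, the hormonal form of vitamin D, at 50 nM for 16 h, or the ethanol vehicle alone, all in charcoal-treated serum. Each of the 6 line and treatment groups had 3 RNA samples, each hybridised to a single-colour Illumina HT-12 bead array. The labels do not say that the 3 replicates came from separate cultures, so p-values reflect no more than the variation among these arrays, possibly of technical origin. Each line is a single model, and values are log2 intensities after background correction and quantile normalization, so a difference of 1 is a doubling of intensity.

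Ribosomes are built in the nucleolus. RNA polymerase I transcribes the long precursor of the ribosomal RNAs, small nucleolar ribonucleoproteins guide its methylation and pseudouridylation, and ordered sets of assembly factors cleave it and fold it into the small and large subunits. The transcription factor MYC is known to drive many of these genes through E-box elements, and in colorectal tumours with active Wnt signalling ribosome production is usually high. Calcitriol acts through the vitamin D receptor, a nuclear receptor whose best known target is CYP24A1, the enzyme that degrades calcitriol.

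The arrays detected 19295 to 21028 of 47323 probes each (40.8 to 44.4%), and replicates of a group correlated at 0.991 to 0.994. CYP24A1 rose with calcitriol in every line, by 1.56 in HCT116, by 1.31 in SW480 and at least 176-fold in LS174T, where it was not detected on any ethanol array (limma, adjusted p = 9.11e-18 in LS174T). The receptor itself, VDR, was detected on 0 of 3 calcitriol and 2 of 3 ethanol arrays of HCT116 and on all arrays of the other lines. Of 8 epithelial markers EPCAM, KRT8, KRT18 and CDX2 were detected on all arrays, all 8 throughout LS174T, while 3 were not detected on any array in each HCT116 group and 1 in each SW480 group. Their summed level was 42470 to 43710 in calcitriol and 39100 to 43370 in ethanol arrays of LS174T, 18990 to 20380 and 17650 to 19730 in those of HCT116, and 12450 to 12850 and 11130 to 12870 in those of SW480. No endothelial marker was detected on all 3 arrays of any group. Of the 7 fibroblast markers COL1A1 and PDGFRB were detected throughout SW480, COL1A1 throughout HCT116 and LUM throughout LS174T. The summed level of the 3 fibroblast markers that passed the filter was 942 to 1090 in calcitriol and 905 to 1084 in ethanol arrays of SW480, and no more than 224 in any array of the other lines. Of the leukocyte markers LYZ and CD14 passed it, with a summed level of 86.4 to 241 over all arrays. The part of these markers in the results below was not tested.

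The calcitriol response of the 40 genes was small and leaned to opposite sides in different lines. In HCT116 1 of 40 genes passed the threshold (limma, Benjamini-Hochberg adjusted p under 0.05 over all genes), and it fell, where 0.0729% of all genes passed and 0.0219% were lower. In LS174T 3 of 40 rose and 0 fell, where 6.05% of all genes passed, 2.81% higher and 3.24% lower. In SW480 0 of 40 passed limma's threshold, against 2.46% of all genes, and 14 of 40 had an unadjusted p under 0.05, all of them higher, where 16.5% of all genes had such a p and 7.06% had it with a higher value. In these bulk samples, a smaller share of cells with the transcript and less transcript per cell cannot be told apart.

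Beneath these few calls lay a shift of many genes by small amounts. The difference between calcitriol and ethanol was below 0 for 29 of 40 genes in HCT116 (49.3% of all genes), above 0 for 33 of 40 in LS174T (46.3% of all genes) and above 0 for 35 of 40 in SW480 (48.6% of all genes). The median difference over the 40 genes was -0.11 in HCT116, 0.10 in LS174T and 0.14 in SW480, where the median over all genes was 0.00, -0.02 and -0.01. The 3 calcitriol arrays lay wholly below the 3 ethanol arrays for 15 genes in HCT116 (7.56% of all genes), and wholly above them for 1 (7.99%). Calcitriol arrays lay wholly above ethanol arrays for 13 genes in LS174T (10.2% of all genes) and for 14 in SW480 (9.73%), and wholly below them for 0 genes in either line (13.3 and 12.3% of all genes). The combination of a difference below 0 in HCT116 with differences above 0 in both other lines was found in 24 of the 40 genes and in 13.4% of all genes. When arrays were scaled to a common median in place of quantile normalization, the median over all genes became 0.09 in HCT116, 0.04 in LS174T and -0.09 in SW480, and the median over the 40 genes became -0.04, 0.18 and 0.09, so the shift relative to all genes kept its side in each line.

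**Figure D1:**
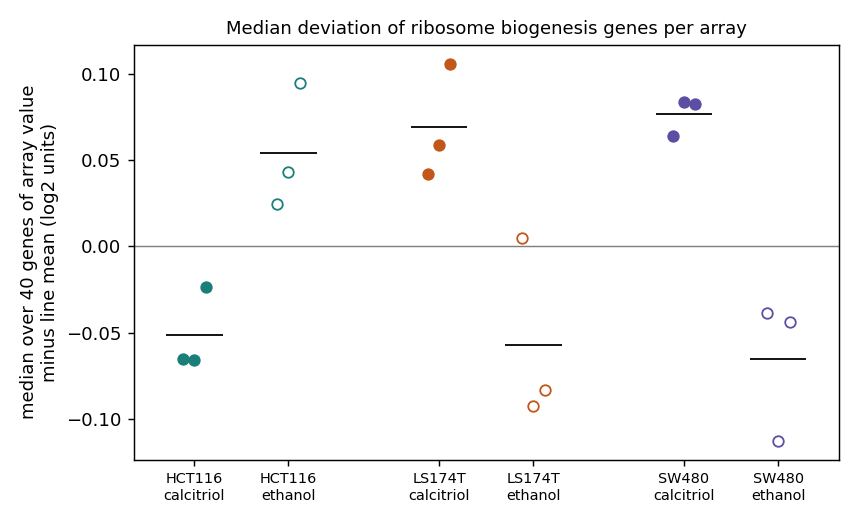
Each point is 1 array, placed at the median over the 40 genes of its log2 value minus that gene's mean over the 6 arrays of its line. Filled points are calcitriol, open points ethanol, and bars the mean of 3 arrays. The 3 calcitriol arrays lie below the 3 ethanol arrays in HCT116 and above them in LS174T and SW480.

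**Figure D2:**
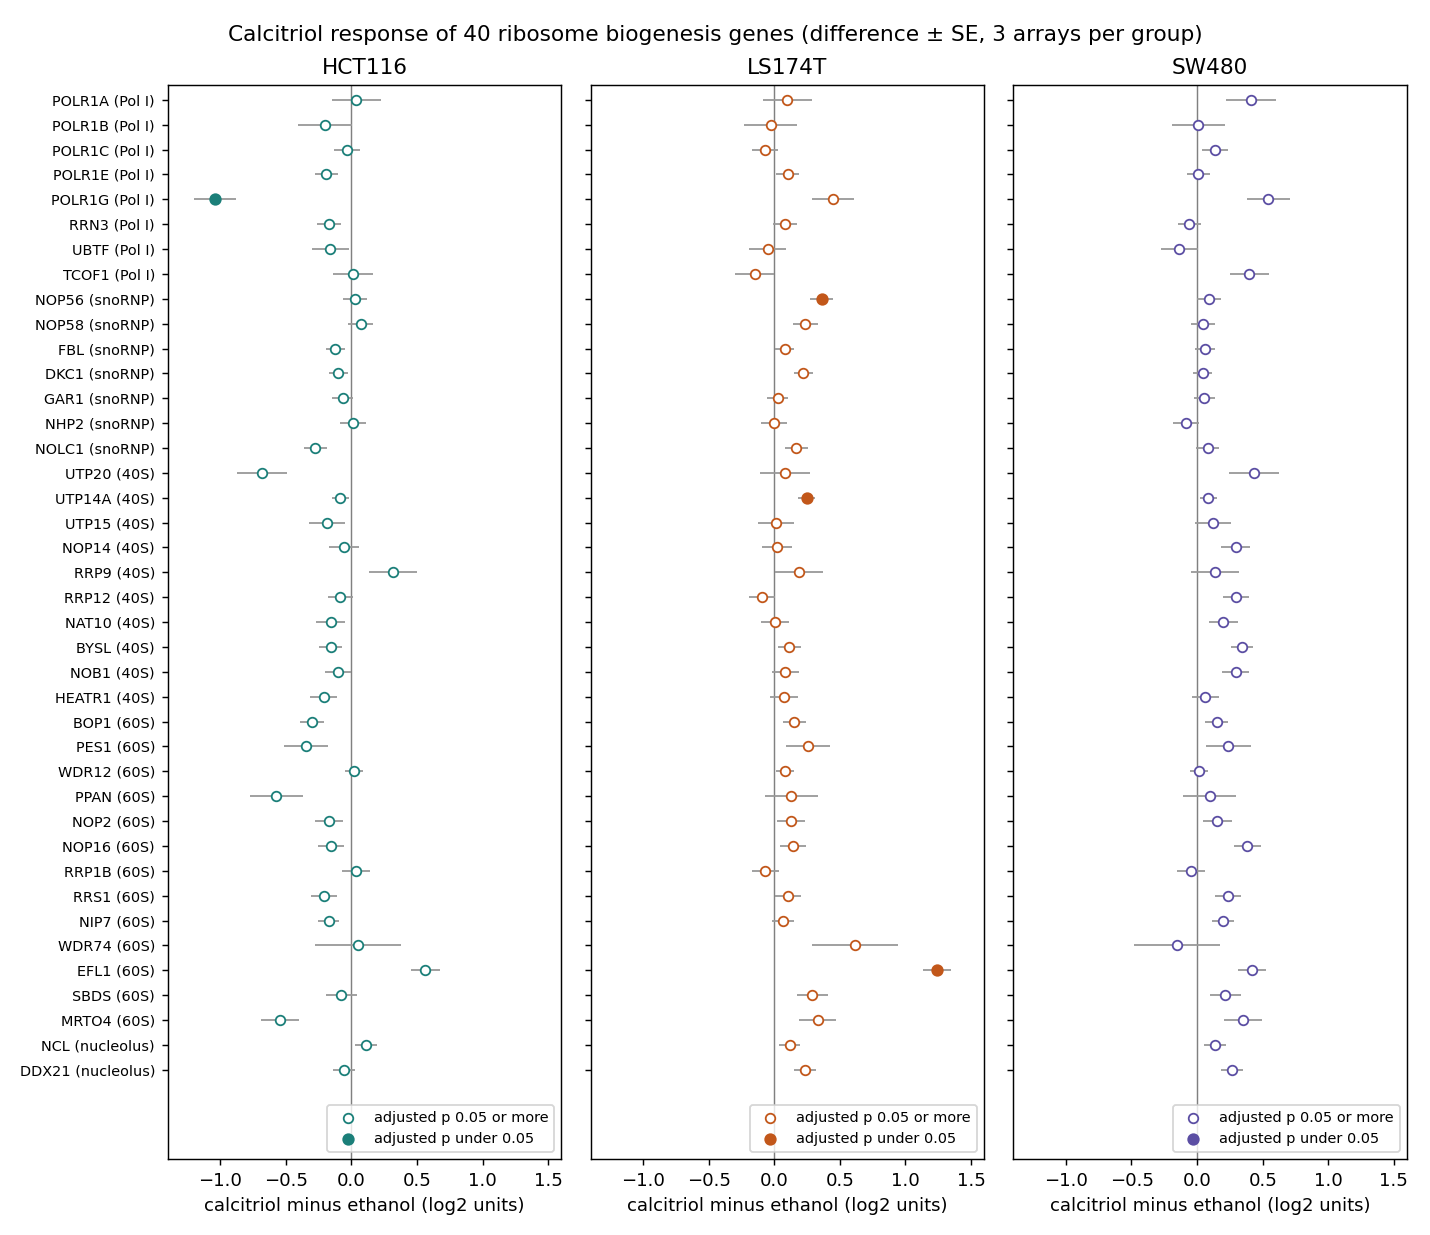
Calcitriol minus ethanol for each of the 40 genes in each line, in log2 units, with its standard error from the limma fit (3 arrays per group). Filled points passed the threshold: POLR1G in HCT116, and NOP56, UTP14A and EFL1 in LS174T. The UTP20 point in HCT116 is a fitted value below the detection limit and no measured size.

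Some of the genes whose responses are described below are introduced here with their promoters, searched for the E-box, a sequence known to bind MYC family proteins. The promoter windows come from RefSeq (GRCh38.p14) and run from 250 bases before to 50 bases after the gene start. They were at hand for 35 of the 43 listed genes and 27305 genes in all. The E-box CACGTG, which reads the same on both strands, occurred in 12 of the 35 windows (34.3%) against 2030 of 27305 (7.43%). AGGTCA and GGTTCA, repeat units of vitamin D receptor elements, were searched on both strands and occurred in 2 of 35 windows each (5.71%), against 13.9 and 8.62% of all windows. The windows of POLR1G (chr19:45406394-45406693, + strand), UTP20 (chr12:101279855-101280154, + strand), MRTO4 (chr1:19251555-19251854, + strand) and BYSL (chr6:41921249-41921548, + strand) are shown because the responses of these genes differed between lines and each holds 1 E-box, in capitals. That of EFL1 (chr15:82262685-82262984, - strand) is shown because EFL1 had the strongest response to calcitriol of the 40 genes, and it holds none. The response of EFL1 also differed between lines, so not every gene with such a response had the E-box in its window.
POLR1G: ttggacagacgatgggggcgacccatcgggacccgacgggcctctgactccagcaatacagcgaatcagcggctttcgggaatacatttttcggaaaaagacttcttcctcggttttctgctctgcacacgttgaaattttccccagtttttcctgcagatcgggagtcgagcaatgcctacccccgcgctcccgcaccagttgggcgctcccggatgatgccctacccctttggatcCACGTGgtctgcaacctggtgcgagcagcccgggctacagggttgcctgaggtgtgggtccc
UTP20: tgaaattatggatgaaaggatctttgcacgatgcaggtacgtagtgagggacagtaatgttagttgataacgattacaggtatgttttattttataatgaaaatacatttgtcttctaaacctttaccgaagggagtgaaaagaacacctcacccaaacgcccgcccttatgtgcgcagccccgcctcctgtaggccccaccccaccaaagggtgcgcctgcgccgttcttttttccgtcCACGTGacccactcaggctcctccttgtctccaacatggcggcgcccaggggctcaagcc
MRTO4: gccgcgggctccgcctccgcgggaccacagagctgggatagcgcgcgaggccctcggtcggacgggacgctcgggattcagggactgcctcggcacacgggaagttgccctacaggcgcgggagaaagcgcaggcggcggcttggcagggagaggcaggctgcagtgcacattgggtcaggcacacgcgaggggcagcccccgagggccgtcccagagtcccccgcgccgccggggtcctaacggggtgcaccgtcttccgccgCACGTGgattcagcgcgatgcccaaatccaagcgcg
BYSL: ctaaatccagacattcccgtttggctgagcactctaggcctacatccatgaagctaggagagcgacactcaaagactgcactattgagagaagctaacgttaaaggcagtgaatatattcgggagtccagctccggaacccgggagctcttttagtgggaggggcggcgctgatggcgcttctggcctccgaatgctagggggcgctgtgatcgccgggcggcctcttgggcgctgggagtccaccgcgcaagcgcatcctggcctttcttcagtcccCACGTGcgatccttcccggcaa
EFL1: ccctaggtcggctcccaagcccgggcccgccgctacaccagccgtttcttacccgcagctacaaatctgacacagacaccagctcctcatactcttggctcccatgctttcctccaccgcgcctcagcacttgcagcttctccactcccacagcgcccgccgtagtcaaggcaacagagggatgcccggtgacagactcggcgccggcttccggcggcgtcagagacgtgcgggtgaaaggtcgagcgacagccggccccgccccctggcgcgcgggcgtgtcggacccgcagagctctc

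The E-box began at base 239 of the 300 in POLR1G, 241 in UTP20, 265 in MRTO4 and 279 in BYSL, each within 30 bases of the gene start. The other E-box windows among the listed genes were those of FBL, NAT10, NOP14, NOP2, PES1, RRP9, UTP14A and WDR43. Among measured genes with a window, 11 had the E-box and 21 did not. The median calcitriol difference was -0.16 with and -0.08 without it in HCT116, 0.13 and 0.09 in LS174T, and 0.24 and 0.10 in SW480. Over all 10800 tested genes with a window, 1085 had the E-box (10.0%), and the medians of those 1085 were -0.01 in HCT116, -0.01 in LS174T and 0.01 in SW480. These are descriptions of letters in a window, and no binding was measured here.

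Among the genes of RNA polymerase I, POLR1G stood apart in HCT116. It encodes a subunit found only in polymerase I, where it pairs with the product of POLR1E. POLR1G had log2 intensities of 5.85, 5.82 and 5.91 in HCT116 with calcitriol, against 7.001, 6.80 and 6.90 with ethanol. Every calcitriol array lay well below every ethanol array. POLR1G was detected on all of them, but its calcitriol values were not far above the dimmest detected probe of each array (5.43, 5.51 and 5.44). It fell by 1.04 ± 0.16 (SE), a 2.05-fold lower intensity (limma, adjusted p = 0.0266). The call held when ethanol replicate 2 was left out (0.0411) and not when any other HCT116 array was, with adjusted p of 0.0887, 0.101 and 0.0727 without calcitriol replicates 1, 2 and 3, and 0.0806 and 0.0826 without ethanol replicates 1 and 3. Without background correction the difference was -0.43 (0.0136), and under median scaling the call was lost (0.0614).

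In the other lines POLR1G lay on the other side. Its values were 7.10, 7.07 and 7.29 in LS174T with calcitriol, against 6.82, 7.06 and 6.23 with ethanol, and 7.38, 7.51 and 7.39 in SW480 with calcitriol, against 7.08, 6.61 and 6.96 with ethanol. The groups did not overlap in either line, though the highest ethanol array of LS174T almost reached the lowest calcitriol array. The differences of 0.45 and 0.54 did not pass the threshold (limma, adjusted p = 0.132 in LS174T and 0.0917 in SW480).

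The other polymerase subunits did not pass in any line. POLR1A, which with POLR1B forms the catalytic centre, had a difference of 0.41 in SW480 (6.47, 6.43 and 6.79 with calcitriol, against 6.09, 6.27 and 6.11 with ethanol, limma adjusted p = 0.297), and 0.04 in HCT116 and 0.10 in LS174T. POLR1B differed by -0.20, -0.03 and 0.01 in HCT116, LS174T and SW480. POLR1C, a subunit shared with RNA polymerase III, stayed between -0.07 and 0.13 by its brightest probe. Its second probe gave 0.05, 0.02 and 0.23 in HCT116, LS174T and SW480. POLR1E, the partner of POLR1G, differed by -0.19 in HCT116, 0.10 in LS174T and 0.01 in SW480, values closer to 0 than those of POLR1G. A second POLR1E probe, detected on all 18 arrays, gave 0.07, 0.33 and 0.14 in the same lines, so the HCT116 side is that of 1 probe.

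The initiation factors were likewise uncalled. RRN3, which brings the polymerase to the ribosomal promoter, differed by -0.17, 0.08 and -0.06 in HCT116, LS174T and SW480. UBTF, an architectural protein of active ribosomal genes, differed by -0.16, -0.05 and -0.14 by its brightest probe. A second UBTF probe, detected on all 18 arrays, gave 0.27, 0.36 and -0.01, on the other side in HCT116 and LS174T. TCOF1, or treacle, a nucleolar cofactor mutated in Treacher Collins syndrome, was not detected on any HCT116 or LS174T array by the probe kept. Its other probes, detected on 2 and 0 of the 18 arrays, were left out. In SW480 the probe kept was detected on 3 calcitriol arrays (5.62, 6.03 and 5.63) and on 1 of 3 ethanol arrays (5.30, 5.51 and 5.28). The TCOF1 difference of 0.40 did not pass (limma, adjusted p = 0.184).

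Of the small nucleolar ribonucleoprotein genes, NOP56 rose in LS174T. NOP56, NOP58 and FBL, the methyltransferase fibrillarin, form the core of the particles that methylate ribosomal RNA. NOP56 values were 12.14, 12.11 and 12.15 in LS174T with calcitriol, against 11.77, 11.71 and 11.83 with ethanol, with no overlap and little spread. The difference was 0.36 ± 0.09 (limma, adjusted p = 0.0234), and in HCT116 and SW480 it was 0.03 and 0.09. The LS174T call held without ethanol replicate 3 (0.0318) and not without calcitriol replicates 1, 2 or 3 (0.0703, 0.0569 and 0.0652) or ethanol replicates 1 or 2 (0.0677 and 0.0986).

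NOP56 was read by 3 probes, and they disagreed. The brightest, used above, gave 0.03 in HCT116, 0.36 in LS174T and 0.09 in SW480, while the other 2 gave -0.33 and -0.35 in HCT116, 0.09 and 0.06 in LS174T, and 0.31 and 0.42 in SW480. The mean over the probes gave 0.17 in LS174T and did not pass (limma, adjusted p = 0.237), so the NOP56 call rests on 1 probe. With LS174T arrays alone its adjusted p was 0.0593.

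Other genes of these particles moved less. NOP58 had 11.05, 11.13 and 11.13 in LS174T with calcitriol, against 10.83, 10.87 and 10.90 with ethanol, without overlap (0.24, limma adjusted p = 0.172), and differed by 0.07 in HCT116 and 0.05 in SW480. FBL differed by -0.12, 0.08 and 0.06 in HCT116, LS174T and SW480. DKC1, the pseudouridine synthase dyskerin, differed by 0.22 in LS174T, also without overlap (adjusted p = 0.0912). Its partners GAR1 and NHP2 stayed within 0.09 of 0 in all lines by their brightest probes. The dimmest of the 4 GAR1 probes gave -0.38 in HCT116, 0.46 in LS174T and 0.32 in SW480. That of the 4 NHP2 probes gave -0.34, -0.07 and 0.01. NOLC1, a chaperone of these particles, had 9.55, 9.56 and 9.73 in HCT116 with calcitriol, against 9.80, 9.87 and 9.99 with ethanol. The groups were separate, and the difference of -0.27 did not pass (limma, adjusted p = 0.29).

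**Figure D3:**
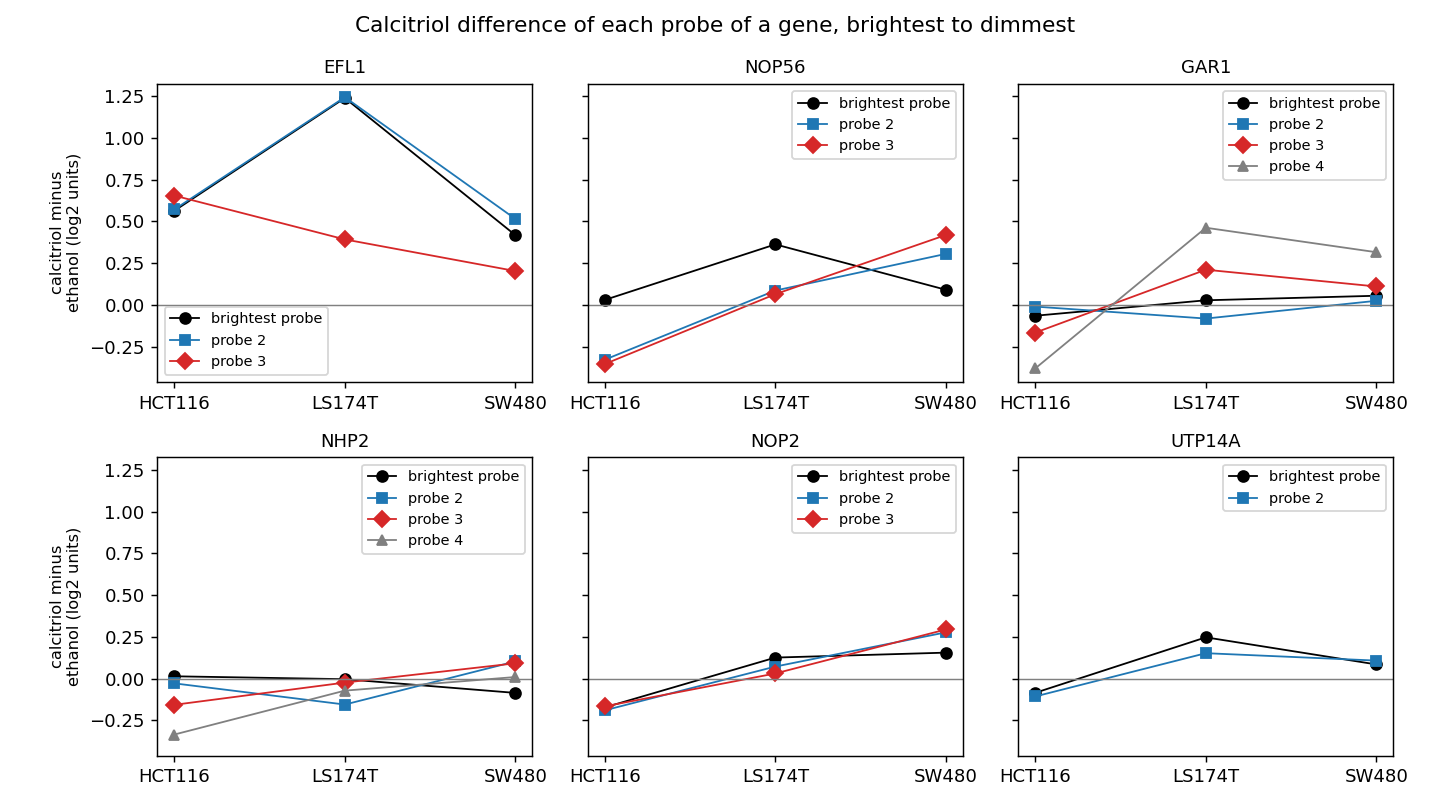
Calcitriol minus ethanol (log2 units) for every probe of 6 genes in the 3 lines, ordered by brightness. The 2 brighter EFL1 probes coincide, while the brightest NOP56 probe departs from its other 2 probes.

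Among small subunit factors, UTP14A rose in LS174T, and UTP20 and BYSL leaned apart in HCT116 and SW480. UTP14A, part of the processome that cleaves the small subunit precursor, had 10.08, 10.01 and 10.03 in LS174T with calcitriol, against 9.80, 9.76 and 9.81 with ethanol. The groups were separate and tight, and the difference was 0.25 ± 0.07 (limma, adjusted p = 0.0358). It was lost whichever LS174T array was left out, at 0.124, 0.072 and 0.0726 without calcitriol replicates 1, 2 and 3 and 0.0916, 0.122 and 0.0617 without ethanol replicates 1, 2 and 3. It was also lost under median scaling (0.103), with its 2 probes averaged (0.115) and with LS174T arrays alone (0.155), and its second probe gave 0.15.

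UTP20, a scaffold of the same processome, was near the detection limit in HCT116. Its values there were 4.92, 4.77 and 5.09 with calcitriol, detected on 0 of 3 arrays, against 5.16, 5.71 and 5.96 with ethanol, detected on 2 of 3. It was at least 1.11-fold lower with calcitriol, a bound taken against the dimmest detected probe of each array, and the difference did not pass (limma, adjusted p = 0.224). In SW480 it had 6.85, 6.53 and 6.49 with calcitriol, against 6.02, 5.96 and 6.59 with ethanol, with overlap through ethanol replicate 3. That difference was 0.43, and the one in LS174T was 0.08.

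BYSL, or bystin, a late small subunit factor, had 10.15, 10.27 and 10.13 in SW480 with calcitriol, against 9.92, 9.71 and 9.89 with ethanol. The groups were separate, and at 0.34 ± 0.09 the difference just missed the threshold (limma, adjusted p = 0.0517). In HCT116 it was -0.16 and in LS174T 0.11. The remaining factors did not pass in any line. In SW480 RRP12 differed by 0.30, NOP14 by 0.29 and NOB1, the nuclease that trims the mature small subunit RNA, by 0.29, all with separate groups. A second NOP14 probe, detected on all 18 arrays, gave -0.05 in SW480 and -0.60 in HCT116, where the probe used gave -0.05. NAT10, an RNA acetyltransferase, HEATR1 and UTP15 differed by -0.16, -0.21 and -0.19 in HCT116. RRP9, a U3 particle protein, differed by 0.32 in HCT116, above 0 as in the other lines.

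The large subunit factor EFL1 gave the strongest response. EFL1 is a GTPase that works with SBDS to release the anti-association factor eIF6 from the new large subunit, the step affected in Shwachman-Diamond syndrome. It had 10.14, 10.17 and 9.98 in LS174T with calcitriol, against 8.72, 8.93 and 8.93 with ethanol. The groups were more than 1 unit apart, and EFL1 rose by 1.24 ± 0.11, or 2.36-fold (limma, adjusted p = 1.8e-06).

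In HCT116 EFL1 had 9.20, 9.29 and 9.07 with calcitriol, against 8.77, 8.59 and 8.52 with ethanol, and in SW480 8.93, 8.71 and 8.79 with calcitriol, against 8.17, 8.51 and 8.49 with ethanol. Calcitriol arrays lay above ethanol arrays in both lines, and the differences of 0.56 and 0.42 did not pass at gene level (limma, adjusted p = 0.0853 and 0.0579). Averaged over the 3 lines EFL1 rose by 0.74 ± 0.06 (adjusted p = 2.77e-06), the only one of the 40 genes to pass in that comparison, where 2.73% of all genes passed and 1.31% were higher. Both EFL1 calls held whichever array was left out. A second probe of nearly the same brightness gave 0.57, 1.24 and 0.52 in HCT116, LS174T and SW480 (limma, adjusted p over all probes of 0.0227, 1.16e-07 and 0.00715), and the third, dim probe 0.65, 0.39 and 0.20.

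SBDS, the partner of EFL1, did not pass. It had 9.65, 9.36 and 9.48 in LS174T with calcitriol, against 9.23, 9.11 and 9.27 with ethanol, with separate groups (0.29, limma adjusted p = 0.194), and differed by -0.08 in HCT116 and 0.21 in SW480.

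MRTO4, which holds the place of the ribosomal stalk protein on the maturing large subunit, went below ethanol in HCT116 and above it elsewhere. It had 7.97, 8.37 and 8.27 in HCT116 with calcitriol, against 8.67, 8.68 and 8.89 with ethanol. In LS174T it had 9.14, 9.39 and 9.45 with calcitriol, against 8.93, 8.95 and 9.11 with ethanol. In both lines the groups were separate, whereas in SW480 the values of 10.09, 10.10 and 9.86 with calcitriol overlapped those of 9.61, 9.40 and 9.98 with ethanol. The differences of -0.54, 0.33 and 0.35 in HCT116, LS174T and SW480 did not pass one by one (limma, adjusted p = 0.213, 0.225 and 0.224).

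PPAN and BOP1 showed the same side in HCT116. PPAN, an early large subunit factor, had 6.09, 5.51 and 6.02 with calcitriol, against 6.67, 6.49 and 6.18 with ethanol (-0.57, limma adjusted p = 0.323). BOP1, which with PES1 and WDR12 forms the PeBoW complex, had 11.04, 11.09 and 11.12 with calcitriol, against 11.32, 11.38 and 11.45 with ethanol (-0.30, adjusted p = 0.276). Neither pair of groups overlapped, and neither difference passed. PES1 differed by -0.34 and WDR12 by 0.02 in HCT116, so the 3 subunits of the complex did not share a value.

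In SW480 NOP16 had 10.99, 10.84 and 10.92 with calcitriol, against 10.56, 10.40 and 10.65 with ethanol (0.38, limma adjusted p = 0.0597), again separate and uncalled. WDR74 had 7.08, 7.22 and 6.88 in LS174T with calcitriol, against 6.46, 6.04 and 6.83 with ethanol, and its difference of 0.62 carried the widest error of the 40 genes (SE 0.33, adjusted p = 0.338). NOP2, RRS1 and NIP7 differed by -0.17, -0.21 and -0.17 in HCT116 and by 0.16, 0.24 and 0.20 in SW480, uncalled throughout. RRP1B stayed within 0.07 of 0 in every line.

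The 2 nucleolar organisers also remained uncalled. DDX21, a helicase that links polymerase I transcription with processing, had 12.48, 12.36 and 12.34 in LS174T with calcitriol, against 12.18, 12.21 and 12.10 with ethanol, and 12.28, 12.23 and 12.44 in SW480 with calcitriol, against 12.18, 11.99 and 11.98 with ethanol. The groups were separate in both lines (0.23 and 0.27, limma adjusted p = 0.119 and 0.104), and the difference in HCT116 was -0.06. NCL, nucleolin, differed by 0.11, 0.12 and 0.14 in HCT116, LS174T and SW480.

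**Figure D4:**
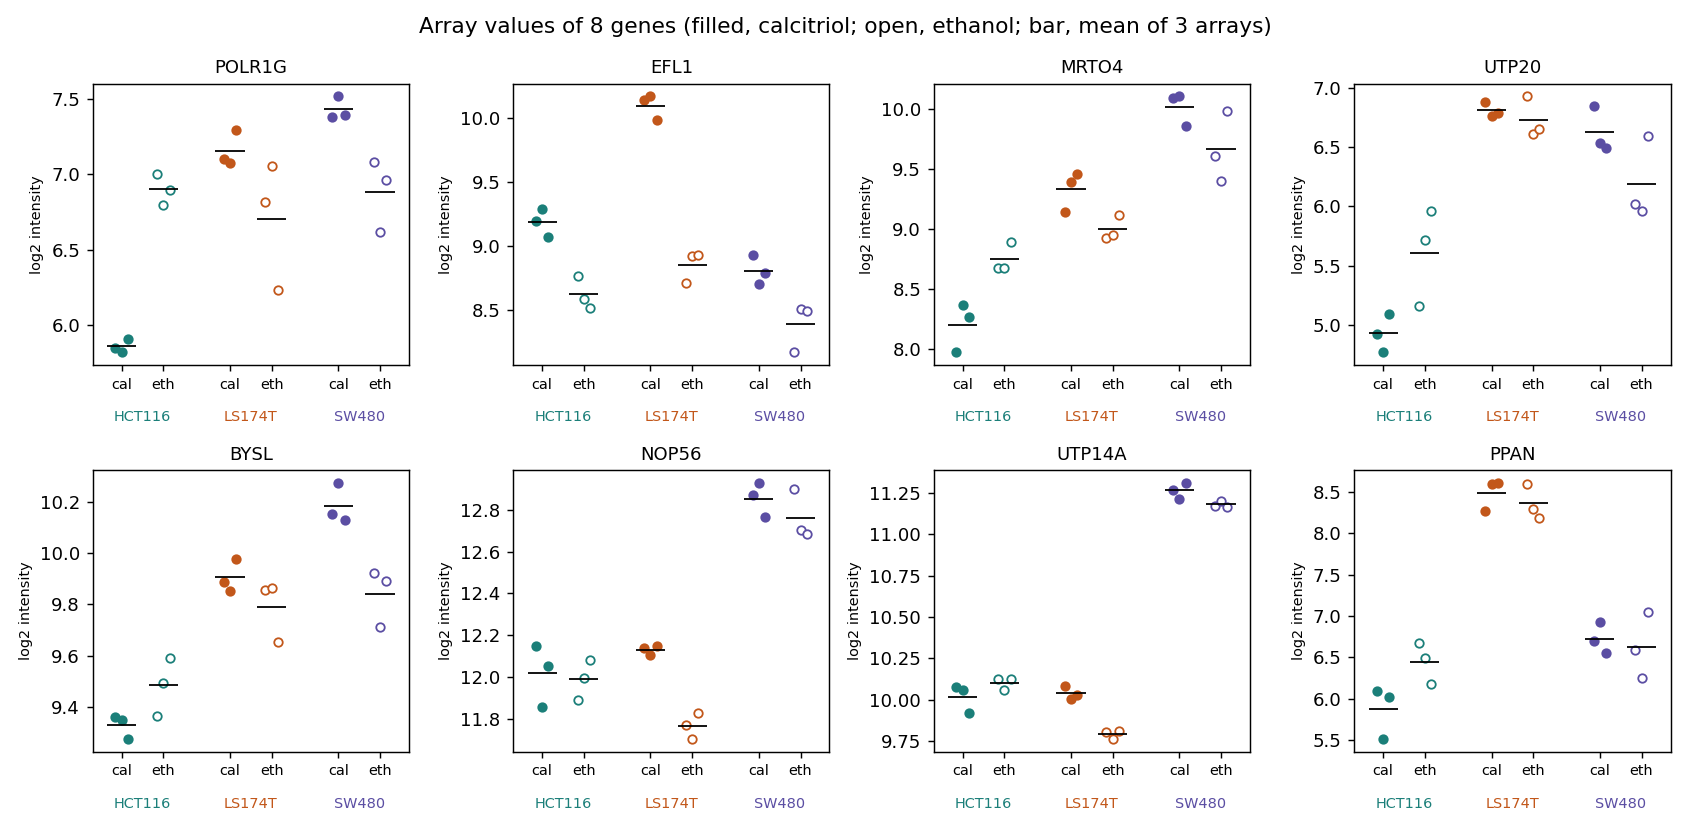
Log2 intensity of 8 genes on every array, with filled points for calcitriol (cal), open points for ethanol (eth) and bars at the mean of 3. POLR1G in HCT116 and EFL1 in LS174T show the widest gaps between the groups of a line, in opposite directions.

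Whether the lines responded differently was tested directly. A moderated F-test across the 3 responses called 4 of the 40 genes, against 5.55% of all genes: POLR1G (limma, adjusted p = 0.000726), EFL1 (0.00932), MRTO4 (0.019) and UTP20 (0.0479). The calls of POLR1G and EFL1 held whichever of the 18 arrays was left out. That of MRTO4 was lost without HCT116 calcitriol replicate 1 (0.0552) or HCT116 ethanol replicate 3 (0.0561). That of UTP20 was lost in 16 of the 18 cases (up to 0.113, without HCT116 ethanol replicate 3) and held without HCT116 ethanol replicate 1 (0.0103) or SW480 ethanol replicate 3 (0.0168), and it was lost under median scaling (0.0535) and with no filter on dim probes (0.0632).

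Set against HCT116, the calcitriol difference in LS174T was higher by 1.49 ± 0.23 for POLR1G (limma, adjusted p = 0.00148), by 0.87 for MRTO4 (0.0281) and by 0.68 for EFL1 (0.0265), 3 of 40 genes against 2.98% of all genes, 1.42% higher. In SW480 it was higher than in HCT116 by 1.58 ± 0.23 for POLR1G (0.0043), by 0.90 for MRTO4 (0.0336) and by 0.50 for BYSL (0.0456), and it also differed for UTP20 (0.0438), together 4 of 40 genes against 2.49% of all genes, 1.08% higher. No size is given for UTP20, because it was not detected on any HCT116 calcitriol array and its difference there is known only as the bound above. Between SW480 and LS174T only EFL1 differed among the 40, by -0.82 ± 0.15 (0.0062), against 3.12% of all genes, 1.88% lower. These comparisons share their arrays, those with HCT116 both using its 6. POLR1G in both comparisons and EFL1 between SW480 and LS174T kept their calls whichever array was left out.

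The other pairwise calls depended on single arrays. EFL1 between LS174T and HCT116 lost its call without HCT116 calcitriol replicate 1 or 3 (adjusted p = 0.0508 and 0.068), HCT116 ethanol replicate 1 (0.0662), LS174T calcitriol replicate 1 or 2 (0.0599 and 0.0665) or LS174T ethanol replicate 1 (0.0701), and also under median scaling (0.0741) and with its probes averaged (0.36, adjusted p = 0.194). MRTO4 in the same comparison lost its call without HCT116 calcitriol replicate 1 (0.0688), HCT116 ethanol replicate 3 (0.0767), LS174T calcitriol replicate 2 or 3 (0.0665 and 0.0675) or LS174T ethanol replicate 1 or 2 (0.0663 and 0.0643).

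Between SW480 and HCT116, MRTO4 was lost in 8 of 12 such fits (up to 0.0843) and held without SW480 calcitriol replicate 3, SW480 ethanol replicate 3, HCT116 calcitriol replicate 2 or HCT116 ethanol replicate 2. UTP20 was lost in 9 of 12 (up to 0.111) and held without SW480 calcitriol replicate 3, SW480 ethanol replicate 3 or HCT116 ethanol replicate 1. It was lost too with no filter on dim probes (0.0571) and with the arrays of the 2 lines alone (0.094). BYSL was lost in 11 of 12 (up to 0.117), held without HCT116 ethanol replicate 1 (0.0491), and under median scaling gave 0.30 (0.307). It was also lost with no filter on dim probes (0.0586) and with the arrays of the 2 lines alone (0.0821), as was MRTO4 with those arrays (0.0695).

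Across the 40 genes the size of the response in one line said little of its size in another. The Pearson correlation of the differences was 0.20 between HCT116 and LS174T, -0.27 between HCT116 and SW480 and 0.22 between LS174T and SW480. These are descriptions over genes of 1 family measured on the same arrays, and over all genes the values were 0.07, -0.19 and 0.08.

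A wider list of 129 other ribosome biogenesis genes, 123 of them measured, leaned the same way as the 40. In HCT116 88 of the 123 had a difference below 0 (49.3% of all genes), with a median of -0.07. There limma called 0 (0.0729% of all genes), with 19 at an unadjusted p under 0.05 (10.8% of all genes). In SW480 99 had a difference above 0 (48.6% of all genes), with a median of 0.12. Again limma called 0 (2.46% of all genes), with 31 at an unadjusted p under 0.05 (16.5% of all genes). In LS174T 95 lay above 0 (46.3% of all genes), with a median of 0.07. In that line 7 rose and 1 fell, against 2.81% of all genes higher and 3.24% lower. TSR1, a late small subunit factor, rose by 0.67 (9.18 ± 0.10 with calcitriol and 8.51 ± 0.24 with ethanol, SD, n = 3 each, limma adjusted p = 0.00131). TAF1A, a subunit of the polymerase I promoter selectivity factor, rose by 0.44 (0.0482), the kinase RIOK3 by 0.37 (0.00272) and the processome protein NOL6 by 0.33 (0.0222). EXOSC9 of the RNA exosome rose by 0.32 (0.0406), and NOP9 fell by 0.47 (0.0447). Without 1 or other LS174T array the count of 8 became 2 to 5, lowest at 2. The F-test across the 3 responses called 4 of the 123 (3.25%), against the 5.55% of all genes given above, namely NOL6 (adjusted p = 0.011), TSR1 (0.0191), PAK1IP1 (0.0363) and RIOK1 (0.0459). The opposed pattern, below 0 in HCT116 and above 0 in both other lines, held for 56 of the 123 (45.5%), against 13.4% of all genes.

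The messenger RNA of MYC did not pass the threshold in any line. It had 12.41, 12.30 and 12.21 in HCT116 with calcitriol, against 12.26, 12.37 and 12.45 with ethanol, and the differences were -0.06, 0.05 and 0.15 in HCT116, LS174T and SW480 (limma, adjusted p = 0.869, 0.833 and 0.368). Its relative MYCN fell by 1.04 in LS174T (7.44, 7.28 and 7.43 with calcitriol, against 8.57, 8.36 and 8.34 with ethanol, adjusted p = 2.42e-06). In SW480 MYCN fell by 0.64 (7.08, 7.09 and 7.26 with calcitriol, against 7.90, 7.74 and 7.69 with ethanol, adjusted p = 0.0023). It was not detected in HCT116. The ribosome biogenesis genes thus lay above ethanol, as a median, in both lines in which MYCN fell, and any relation between these values was not tested.

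Differences between the lines were larger than those made by calcitriol. In ethanol alone 35 of the 40 genes differed among the lines by the F-test, against 79.7% of all genes. The median gene spanned 0.80 between its highest and lowest line, and its largest calcitriol difference in any line was 0.26 as a median. For 35 of the 40 the span between lines was the larger of these values. SW480 had the highest mean for 23 of the 40 genes (35.8% of all genes), LS174T for 12 (33.1%) and HCT116 for 5 (31.2%), and HCT116 had the lowest mean for 22 (33.3%).

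SW480 lay above HCT116 for 25 of the 40 genes and below it for 3, a total of 28 called against 64.4% of all genes, of which 32.8% were higher and 31.6% lower. The widest gaps were those of RRP1B, a large subunit factor (10.03, 9.89 and 10.04 in SW480, against 8.28, 8.69 and 8.49 in HCT116, a difference of 1.50, limma adjusted p = 2.39e-09), and DKC1 (13.19, 13.17 and 13.10 in SW480, against 11.84, 11.89 and 11.88 in HCT116, 1.29, 1.18e-10). UTP14A followed with 11.17, 11.21 and 11.17 in SW480, against 10.12, 10.06 and 10.13 in HCT116 (1.08, 3.62e-10). None of these groups overlapped. GAR1 had 12.12, 11.96 and 12.02 in SW480, against 10.97, 11.15 and 11.02 in HCT116 (0.99, 1.6e-08), and its dimmest probe gave 0.29. POLR1B had 8.06, 7.55 and 7.52 in SW480, against 6.55, 6.73 and 6.99 in HCT116 (0.95, 0.000585). Of the 7 small nucleolar particle genes, 6 were higher in SW480 than in HCT116 and 0 were lower, with a median difference of 0.61. NHP2 is among the 6 by its brightest probe alone (0.38). Its other probes gave 0.10, 0.15 and 0.24 (limma, adjusted p over all probes of 0.357, 0.252 and 0.0626). The 25 include TCOF1, detected on 1 of 3 SW480 and 0 of 3 HCT116 ethanol arrays, for which no fold is given.

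The 3 exceptions were RRN3, NOB1 and POLR1C. RRN3 had 8.54, 8.43 and 8.37 in SW480, against 9.65, 9.56 and 9.59 in HCT116 (-1.15, limma adjusted p = 6.66e-09). NOB1 had 8.78, 8.86 and 8.83 in SW480, against 9.82, 9.88 and 9.85 in HCT116 (-1.03, 1.58e-07). POLR1C had 10.54, 10.31 and 10.66 in SW480, against 11.53, 11.34 and 11.37 in HCT116 (-0.91, 4.72e-07). Subunits of the same enzyme therefore stood in different orders, with POLR1B highest and POLR1C lowest in SW480.

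LS174T differed from HCT116 for 23 of the 40 genes, 16 higher and 7 lower, where 60.4% of all genes passed, 31.1% higher and 29.3% lower. GAR1 is among the 16 by its brightest probe (0.21), but its probes disagreed in sign. The others gave 0.56, -0.43 and -1.03 (limma, adjusted p over all probes of 8.59e-05, 0.00751 and 0.000227). PPAN had 8.60, 8.30 and 8.18 in LS174T, against 6.67, 6.49 and 6.18 in HCT116 (1.91, limma adjusted p = 4.15e-07). UTP15 had 8.52, 8.53 and 8.36 in LS174T, against 7.15, 7.17 and 7.04 in HCT116 (1.35, 2.38e-07). UTP20 had 6.93, 6.61 and 6.65 in LS174T, against 5.16, 5.71 and 5.96 in HCT116 (1.12, 8.18e-05). These 3 assembly factors were without overlap. UBTF had 8.31, 8.35 and 8.30 in LS174T, against 7.45, 7.24 and 7.23 in HCT116 (1.01, 1.03e-05). A second UBTF probe, also detected on all 18 arrays, gave -0.06 (adjusted p over all probes of 0.875), and the mean over the probes gave 0.48 (0.00608), so the UBTF gap is that of 1 probe. POLR1A had 6.16, 6.30 and 6.89 in LS174T, against 5.84, 5.71 and 5.09 in HCT116 (0.91, 0.000585). It was detected on 2 of these 3 HCT116 arrays, and 5.09 lay below the dimmest detected probe of its array (5.40). The call held under all alternatives, with differences down to 0.34.

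Genes lower in LS174T than in HCT116 had smaller differences. NOB1 had 9.17, 9.10 and 8.95 in LS174T, against 9.82, 9.88 and 9.85 in HCT116 (-0.78, limma adjusted p = 4.85e-06). POLR1E had 9.79, 9.73 and 9.71 in LS174T, against 10.34, 10.30 and 10.56 in HCT116 (-0.66, 5.67e-06), and RRN3 had 8.87, 8.87 and 9.14 in LS174T, against 9.65, 9.56 and 9.59 in HCT116 (-0.64, 9.49e-06). UTP14A and NOP58 had differences of -0.31 each (0.000639 and 0.00962). NOP58, at 10.83, 10.87 and 10.90 in LS174T against 10.98, 11.35 and 11.18 in HCT116, lost its call without HCT116 ethanol replicate 2 (0.0629) and under median scaling (0.437), and UTP14A lost its call under median scaling (0.389).

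SW480 differed from LS174T for 28 of the 40 genes, 19 higher and 9 lower, where 63.8% of all genes passed, 31.9% higher and 32.0% lower. POLR1B had 8.06, 7.55 and 7.52 in SW480, against 6.15, 6.21 and 6.49 in LS174T (1.42, limma adjusted p = 1.05e-05), and UTP14A was higher in SW480 by 1.39 (1.15e-11). DKC1 had 13.19, 13.17 and 13.10 in SW480, against 12.18, 12.14 and 12.10 in LS174T (1.02, 2.26e-09). NOP56, at 12.90, 12.70 and 12.68 in SW480 against 11.77, 11.71 and 11.83 in LS174T, was higher by 0.99 (4.69e-08), and here all 3 of its probes were higher in SW480. WDR74 had 8.04, 6.62 and 7.46 in SW480, against 6.46, 6.04 and 6.83 in LS174T. Those groups overlapped, and the call (0.93, 0.0201) was lost without LS174T replicate 2 (0.0931) or SW480 replicate 1 or 3 (0.127 and 0.0538).

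In the other direction PPAN had 6.59, 6.24 and 7.04 in SW480, against 8.60, 8.30 and 8.18 in LS174T (-1.73, limma adjusted p = 1.05e-06). UTP15 had 7.57, 7.23 and 7.55 in SW480 (-1.02, 5.12e-06) and UBTF 7.16, 7.39 and 7.37 (-1.01, 8.66e-06), both with every SW480 array below every LS174T array. POLR1C had 10.54, 10.31 and 10.66 in SW480, against 11.62, 11.34 and 11.45 in LS174T (-0.97, 2.11e-07). UTP20 was lower in SW480 by a difference of -0.54 (0.0209), a call lost without LS174T replicate 1 (0.0873) or SW480 replicate 1 or 2 (0.0817 and 0.096) and under median scaling (0.0787). The second UBTF probe gave 0.08 (adjusted p over all probes of 0.818) and the mean over its probes -0.465 (0.00669). PPAN, UTP15 and, by its brightest probe alone, UBTF thus had their highest level in LS174T, with SW480 and HCT116 within 0.33 of each other. Under median scaling the median over all genes moved to 0.20 between SW480 and HCT116 and to 0.12 between SW480 and LS174T, and line differences are read against that shift.

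**Figure D5:**
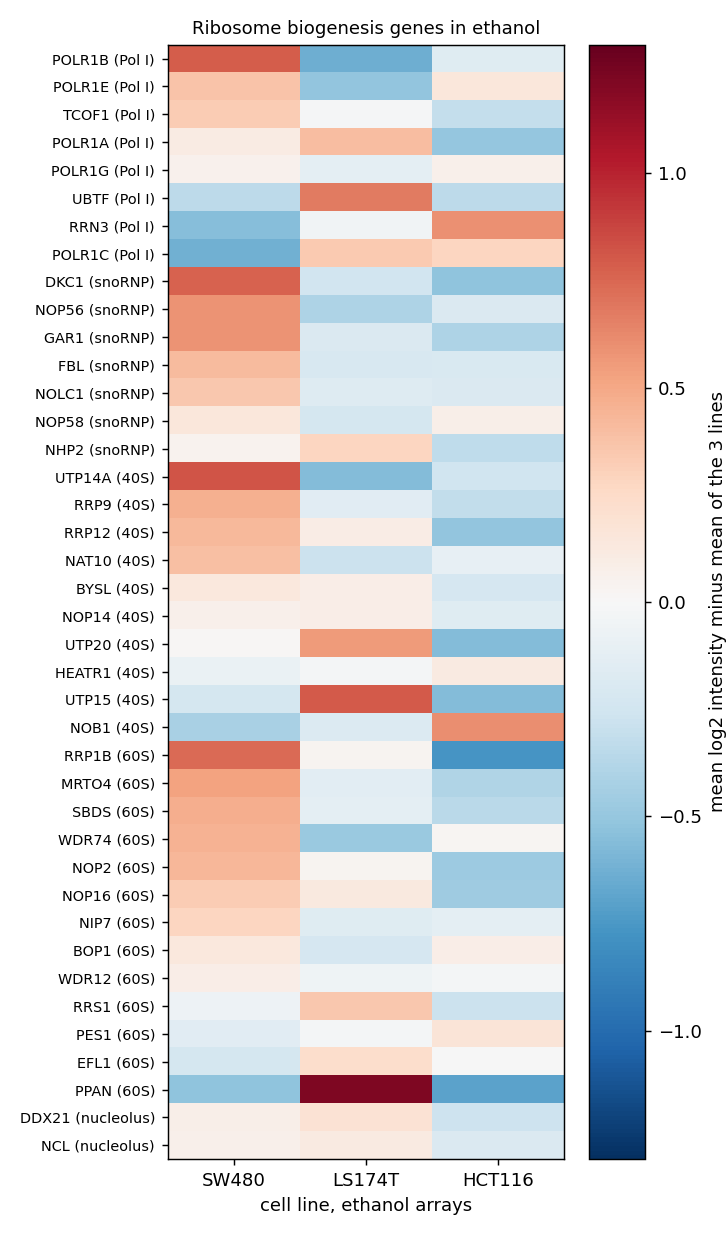
Mean log2 intensity on ethanol arrays in each line minus the mean of the 3 lines, for the 40 genes grouped by role (red above, blue below). SW480 holds most of the higher values among small nucleolar particle genes, whereas PPAN, UTP15 and the brightest UBTF probe, though not the second one, are highest in LS174T.

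Genes with near copies elsewhere in the genome, such as RRN3 and SBDS, carry a further limit, since their probes may bind transcripts of related pseudogenes, which these arrays cannot separate.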

How the data were processed

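Per the labels' protocols, RNA was amplified and labelled for Illumina HT-12 arrays. The authors deposited linear probe intensity values, per the file headers, with no normalization and with each array's detection p-value. They also deposited a table of log2 values, from which those computed here differed by a median of 0.000195; the submitters' processing notes name limma but no version. Intensities were background-corrected from the detection p-values with an offset of 16 and quantile-normalized (neqc, limma 3.58.1, R 4.3.3). Probes detected at p under 0.05 on at least 3 of 18 arrays were kept (25586 of 47323), and each gene took its brightest probe. The 887 rows without an identifier were left out. Symbols came from the platform annotation (30113 probes with 1 symbol, 8 with several, 17202 not listed) and were updated through Entrez identifiers (30074 probes) to RefSeq, GRCh38.p14.

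All 18 arrays were fitted as 6 group means with lmFit and eBayes, with Benjamini-Hochberg adjustment over 13712 genes. The fit was tested on simulated data. The genes, lists and tests were chosen with earlier results of these data known. Values per array are given for genes past the threshold in a calcitriol comparison, for genes among the 6 largest rises and falls of a line with separate groups, for the 5 largest called line differences each way, and for genes undetected in a group. The number of arrays limits the precision. Array slide and position are not given in the sources used here, so no slide effect was fitted. Alternatives changed the background correction, normalization, probe filter, probe summary, variance model, replicate block and arrays used.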

Additional observations from a re-analysis of the deposited data

Results flagged for a closer look

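Calcitriol responses of these genes differed between lines by limma's test of the difference itself. Across the 3 lines, where 5.55% of all genes passed, the adjusted p was 0.000726 for POLR1G, 0.00932 for EFL1, 0.019 for MRTO4 and 0.0479 for UTP20. Between LS174T and HCT116, where 2.98% of all genes passed, it was 0.00148 for POLR1G, 0.0265 for EFL1 and 0.0281 for MRTO4. Between SW480 and HCT116, where 2.49% passed, it was 0.0043 for POLR1G, 0.0336 for MRTO4, 0.0438 for UTP20 and 0.0456 for BYSL. Between SW480 and LS174T, where 3.12% passed, it was 0.0062 for EFL1. With 1 array left out, UTP20 was lost in 16 of 18 fits across lines and 9 of 12 between SW480 and HCT116, and BYSL in 11 of 12. MRTO4 was lost in 2 of 18 fits across lines and 8 of 12 between SW480 and HCT116. Between LS174T and HCT116, MRTO4 and EFL1 were lost in 6 of 12 fits each.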

How the results depend on the processing

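Of 45 results for single genes, 0 reversed, 34 kept their call under all alternatives run and 31 of these also whichever array was left out. These 45 pool line differences in ethanol, most of which held, with calcitriol responses and their differences between lines, which held less often. Among the latter, every result that held throughout was of POLR1G or EFL1. The fall of POLR1G in HCT116 and the EFL1 difference between LS174T and HCT116 did not hold throughout. The log2 table of the authors left every count given here within 1.5 times. Without background correction the counts of called genes became 2 in HCT116, 5 in SW480, 8 for responses differing among lines, 5 for LS174T against HCT116, and 5 for the wider list in SW480. With median scaling they became 0 in HCT116 and 2 for the wider list in LS174T, and the median of the 40 genes became -0.041 in HCT116 and 0.185 in LS174T. With no filter on dim probes the count became 2 for SW480 against HCT116 and 4 for the wider list in LS174T. With a stricter filter it became 3 in SW480 and 2 for the wider list there. With the mean over probes it became 2 in HCT116, 1 in LS174T, 2 in SW480, and 5 and 1 for the wider list in LS174T and SW480. With a trended, robust variance it became 2 in HCT116, 5 in LS174T, 4 in SW480, 3 for the average, 8 among lines, 7 for each comparison with HCT116 and 4 for the wider list in SW480. With only the arrays compared it became 1 in LS174T, 1 for SW480 against HCT116 and 0 for the wider list in LS174T.

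Leaving out 1 array gave 0 to 1 called genes in HCT116, 1 to 2 in LS174T, 0 in SW480, 1 for the average, 2 to 5 among lines, 1 to 3 for each comparison with HCT116, and 2 to 5 and 0 to 1 for the wider list in LS174T and SW480. The medians ranged from -0.132 to -0.0959 in HCT116, 0.0837 to 0.152 in LS174T and 0.109 to 0.196 in SW480. Line differences in ethanol were counted over these fits and the alternatives together. Their counts stayed at 21 to 25, 24 to 33, 25 to 30 and 34 to 37.

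The labels only number the replicates and do not say whether these numbers pair the samples. Deviations of same-numbered arrays correlated at -0.11 to 0.09, and those of other-numbered arrays at -0.12 to 0.16. No shared replicate effect was seen in these values, which cannot tell how the samples were collected. With the replicate block the count became 0 in HCT116 (POLR1G, adjusted p = 0.0519) and 2 for SW480 against HCT116, where UTP20 (0.0531) and BYSL (0.0745) were lost, as were UTP14A in LS174T (0.0561) and UTP20 among lines (0.0584). Low signal limits UTP20, TCOF1 and, in the HCT116 ethanol arrays, POLR1A. The HCT116 calcitriol values of POLR1G were also low, though detected. Background correction sets the size of POLR1G in HCT116, which fell by 0.43 without it.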
